A study of Mus musculus with 32 samples.

Results

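The transcripts of 36 genes of the autophagy and mitophagy machinery were followed in mouse gastrocnemius (GAS) muscle after its nerve had been cut. The genes were taken by their symbols from a list of initiation, lipid kinase, membrane, conjugation, ATG8, cargo receptor, mitophagy and transcription factor genes, and all 36 were present among the 33397 genes measured. The sequenced RNA came from GAS muscles of mice labelled C57BL/6 (C57BL/6J in the methods of the study) at days 0, 1, 3, 5, 7, 14, 21 and 28, 4 per time point and 32 in all, in 8 groups. The animals of the study were males aged 6 to 8 weeks in which a short piece of the left sciatic nerve was removed. No gene was altered in these groups. The sample labels give sciatic nerve transection as the treatment of all 8 groups, day 0 included, while the study describes a sham group. The day 0 samples were used as the reference, and whether they were sham-operated is not given in the labels. The labels do not tie the samples to single animals either. The p-values and SEs below set a change against the spread between these samples, taken for each gene over all 8 groups together. An SE therefore does not show that the samples of a given day were spread more widely than those of another.

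Macroautophagy encloses cytoplasm in a double membrane that fuses with the lysosome. The ULK kinase complex starts it, a phosphatidylinositol 3-kinase complex marks the membrane, WIPI proteins and ATG9A and ATG2A help it to grow, and a ubiquitin-like conjugation system attaches ATG8 proteins (the LC3 and GABARAP proteins) to its lipids. Receptors such as p62 tie cargo to ATG8 proteins, and BNIP3, NIX and FUNDC1 do so for mitochondria in mitophagy, which the PINK1 kinase can trigger. In skeletal muscle this route, together with the proteasome, removes proteins and organelles when a muscle wastes, and several of its genes are known targets of FOXO and TFEB transcription factors. Transcript levels do not measure autophagic flux, since ATG8 proteins and p62 are themselves consumed by the lysosome.

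The deposited values were FPKM, fragment counts adjusted for the exon length of the gene and for the depth of the library. The library depth recovered from them was between 14199898 and 17561590 fragments per sample (median 16663162), and no member had fewer than 160 fragments in any sample. The muscle fibre list (10 of 10 markers measured) summed to between 43638 and 46476 FPKM at day 0. The retina list, checked because the extraction text in the labels speaks of retinas, stayed between 0.468 and 1.95 FPKM in all samples. One library stood apart: replicate 1 of day 3 lay at -19.4 on the first principal component (44.7% of the variance), and the 3 other day 3 samples lay between 0.75 and 6.25. Mitochondrial genes took 14.5% to 18.2% of the fragments at day 0 and 6.70% to 13.5% from day 3 on. They are part of the total that FPKM divides by. Changes are also given after median-ratio scaling. It divides each sample by the median ratio of its genes (those of 1 FPKM or more in all samples) to their geometric mean over samples. A gene listed as called had an adjusted p under 0.05 and a change of at least 1.5-fold in limma on log2(FPKM + 1). The added 1 makes changes of low genes smaller on this scale than in FPKM, and 15 changes of 10 members that passed the adjusted p were 1.5-fold or more in the mean FPKM but not on the log2 scale, and were not called. In bulk muscle, fewer cells of a type and less RNA per cell cannot be told apart. The macrophage list (8 markers, none at 0) lay between 122 and 175 FPKM at day 0, between 261 and 874 at day 3 and between 387 and 465 at day 28, while the muscle fibre list was at 25478 to 29579 at day 3 and 23917 to 27920 at day 28. The satellite cell list (5 markers, none at 0) lay between 12.9 and 14.3 FPKM at day 0 and between 29.3 and 43.4 at day 3, the Schwann cell list (8 markers, none at 0) went from between 129 and 275 to between 28.3 and 75.7, and the endothelial list (5 markers, none at 0) from between 79.7 and 92.03 to between 47.3 and 68.2. The part of these cell types in the results was not tested. The day 3 library that stood apart had the lowest macrophage sum of its day, 261 FPKM against 874, 811 and 439, and the lowest fibroblast list sum, 274 against 654, 682 and 488.

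Of the 36 genes, 19 were called higher on at least 1 day, Ulk2 and Tfeb were called lower, and 15 were called on no day. Of all 22071 genes tested, 25.7% were called higher and 8.19% lower on at least 1 day, and of the 11943 that averaged 1 FPKM or more, as all members did, 41.1% and 12.9%. After median-ratio scaling 10 members were called higher and 4 lower on at least 1 day (all genes 15.4% higher and 14.2% lower, genes averaging 1 FPKM or more 23.7% and 22.7%). As shares of the 36 these were 27.8% higher and 11.1% lower. The counts by role below are to be read against these shares. Each of the 15 members called on no day as deposited had an adjusted p under 0.05 at its day of largest change and missed only the 1.5-fold threshold. That day was chosen for the size of the change, which the adjusted p does not correct for. The share of all genes passing at their own such day is not given. Without a fold threshold 20.4% to 38% of all genes were higher on a single day. On the median-ratio scale 6 of these 15 (Becn1, Pik3r4, Atg2a, Atg4a, Atg5 and Atg16l1) had an adjusted p between 0.0571 and 0.768 at the same day, and Fundc1 and Pink1 were called lower there. Among the 19, 7 were called at day 1 or 3 alone (Ulk1, Rb1cc1, Atg13, Wipi2, Map1lc3b, Optn and Bnip3), and 8 were still called at day 28 (Ambra1, Atg12, Map1lc3a, Gabarap, Sqstm1, Nbr1, Tax1bp1 and Calcoco1). All comparisons with day 0 share its 4 samples. At day 1, 9 of the 36 members (25%) were called higher and 0 lower, where 6.34% higher and 2.49% lower of the 22071 genes tested were called. At day 3 the count was 13 higher and 1 lower (all genes 13.2% higher and 6.03% lower). At day 5, 9 members were higher and 1 was lower (all genes 14.9% higher and 3.86% lower), and at day 7, 10 and 1 (all genes 15.4% higher and 4.1% lower). The later counts were 9 and 1 at day 14 (all genes 14.6% higher and 3.83% lower), 9 and 0 at day 21 (all genes 11.8% higher and 3.93% lower) and 8 and 0 at day 28 (all genes 14.2% higher and 4.1% lower). Genes with 1 FPKM or more in at least 4 samples (13405) were called more often than all genes, 10.2% of them higher at day 1, 21.5% at day 3 and between 19.1% and 25% from day 5 on. The members called higher were 25% at day 1 and 36.1% at day 3, above those shares, and between 22.2% and 27.8% from day 5 on, where the 2 ranges overlap. All 36 varied over the 8 days in the F test, as did 63.2% of all genes tested. For 28 members (77.8%) the lowest mean was that of day 0, as it was for 47.1% of the genes averaging 1 FPKM or more, and after median-ratio scaling for 10 members (27.8%) and 23.1% of those genes. The highest mean was at day 3 for 12 members (33.3%, and 16.9% of those genes) as deposited and for 11 (30.6%, and 18% of those genes) after scaling.

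The counts depended on how the samples were scaled. The median log2 change of the members was 0.28, 0.38, 0.40, 0.39, 0.39, 0.32 and 0.35 at days 1, 3, 5, 7, 14, 21 and 28 as deposited. The 11943 genes that averaged 1 FPKM or more also shifted upward, by medians of 0.12, 0.20, 0.31, 0.32, 0.32, 0.24 and 0.30. With totals that left out mitochondrial genes their medians were 0.08, 0.13, 0.21, 0.21, 0.20, 0.16 and 0.22. The cause of this shift was not tested. The members' medians after median-ratio scaling were 0.11, 0.13, 0.07, 0.09, 0.08, 0.07 and 0.04. At day 1, 5 members were then higher and 1 lower (all genes 3.81% higher and 5.23% lower), and at day 3, 8 and 1 (all genes 8.0% higher and 10% lower). From day 5 on the counts were 4 and 3 at day 5 (all genes 6.69% higher and 7.7% lower), 4 and 3 at day 7 (all genes 7.15% higher and 7.92% lower), 3 and 3 at day 14 (all genes 6.79% higher and 7.26% lower), 3 and 3 at day 21 (all genes 6.63% higher and 7.0% lower) and 3 and 3 at day 28 (all genes 7.07% higher and 7.68% lower). On that scale the members called higher were 13.9% of the 36 at day 1, 22.2% at day 3 and 11.1% at days 5 and 7. They were 8.33% at days 14, 21 and 28, near the share of all genes. Of the 79 calls in all comparisons, 42 were kept after median-ratio scaling. Fundc1 at day 1, Pink1 from day 5 and Ulk2 and Tfeb at each day from day 5 were the downward calls on that scale, with Ulk2 also at day 3.

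**Figure D1:**
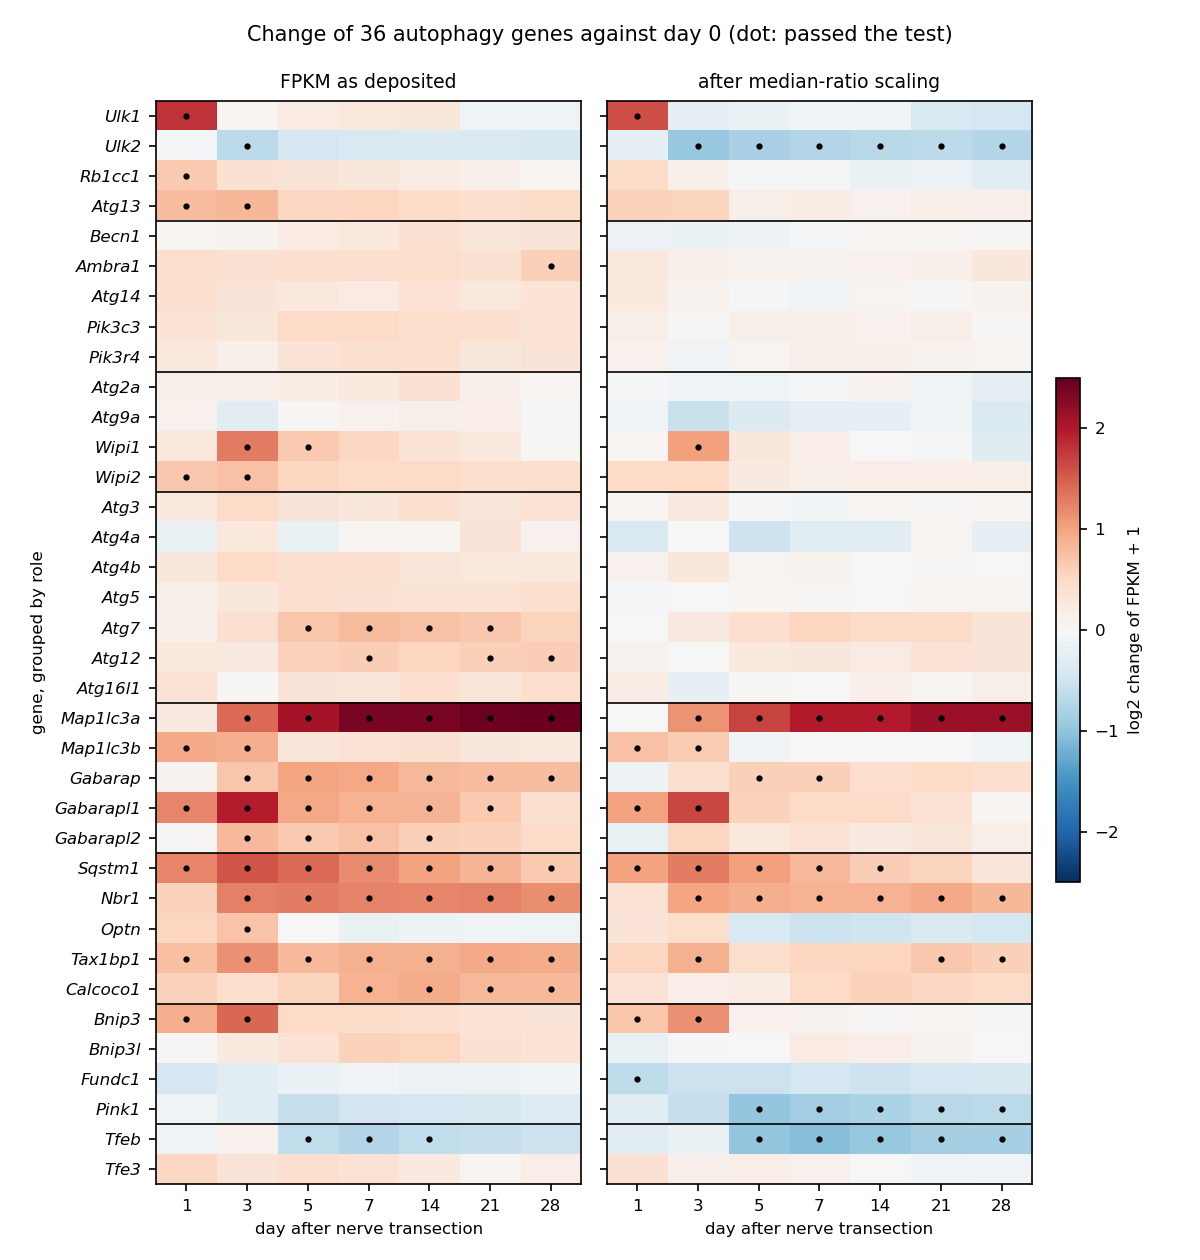
Log2 change of FPKM + 1 against day 0 for the 36 genes (rows, grouped by role) at 7 days (columns), as deposited and after median-ratio scaling; dots mark genes with an adjusted p under 0.05 and at least 1.5-fold. Map1lc3a, Nbr1 and Tax1bp1 are red at day 28 with a dot on both sides, while Ulk1, Gabarapl1, Sqstm1, Bnip3 and Wipi1 are darkest at day 1 or 3.

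Among the ATG8 genes, whose products coat the autophagosome membrane and bind cargo receptors, Map1lc3a changed most and had its highest mean at day 28. Map1lc3a (chromosome 2, 155276297 to 155278073 on GRCm38) encodes LC3A. Its FPKM was 119, 114, 121 and 98.7 at day 0 and 124, 139, 133 and 134 at day 1. It reached 266, 304, 300.5 and 342 at day 3 and 601, 604, 628 and 514 at day 7. At day 28 it was 630.2, 588, 660.1 and 662. The day 1 samples lay above those of day 0, by 0.23 in log2 units, a change too small to be called, and from day 3 on all samples lay far above the day 0 range. The mean rose from 113 ± 10.1 (SD, n = 4) to 635 ± 34.7, a 5.61-fold difference. The log2 change was 1.41 ± 0.08 (SE, adjusted p = 6.30e-15) at day 3, 2.09 at day 5, 2.36 at day 7 and 2.48 ± 0.08 (SE, adjusted p = 6.65e-20) at day 28. After median-ratio scaling it was 0.01 at day 1, 1.12 at day 3 and 2.13 at day 28. In the library of day 3 that stood apart Map1lc3a was lowest of the 4, and without it the day 3 change was 1.47.

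Gabarapl1 (chromosome 6, 129533160 to 129542346), which encodes a GABARAP-like ATG8 protein and is a known FOXO target, moved earlier and came back. Its FPKM was 27.6, 25.6, 28.8 and 25.3 at day 0 and 64.9, 63.5, 63.5 and 63.8 at day 1. It was 137, 122, 92.2 and 86.02 at day 3 and 50.001, 50.8, 53.3 and 58.1 at day 5. At day 28 it was 36.8, 36.9, 31.01 and 37.5. The day 1 samples were tightly grouped, the day 3 samples were spread with the library that stood apart on top, and even the day 28 samples did not overlap with day 0. The log2 change was 1.22 ± 0.10 (SE, adjusted p = 5.58e-11) at day 1, 1.96 ± 0.10 (SE, adjusted p = 6.00e-16) at day 3, 0.96 at day 5 and 0.39 at day 28, the last of them below the 1.5-fold threshold. Without the day 3 library that stood apart, the day 3 change was 1.84. On the median-ratio scale Gabarapl1 was called higher at days 1 and 3, by 1.01 and 1.68, and its day 28 value was 0.05. It shares 570 exon bases with the antisense gene 1700101I11Rik, whose mean stayed between 0.114 and 0.490 FPKM, and the counting is not stated to use strand.

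Map1lc3b (chromosome 8, 121590361 to 121598760), which encodes LC3B, the ATG8 protein most used as an autophagosome marker, was also early. It stood at 21.5, 21.5, 23.3 and 20.7 FPKM at day 0 and 39.2, 39.5, 48.3 and 44.5 at day 1. At day 3 it was 51.2, 43.3, 36.2 and 38.5, and at day 28 26.3, 24.5, 26.99 and 25.6. The day 1 and day 3 samples overlapped with each other and lay well above the rest. Its log2 change was 0.94 ± 0.07 (SE, adjusted p = 4.89e-11) at day 1 and 0.92 ± 0.07 (SE, adjusted p = 2.32e-11) at day 3 and then 0.30 to 0.38 between days 5 and 14. Without the library that stood apart the day 3 change was 0.82. After median-ratio scaling it was 0.73, 0.64 and, at day 28, -0.10.

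Gabarap (chromosome 11, 69991143 to 69994951) and Gabarapl2 (chromosome 8, 111940703 to 111953612), which encode the remaining GABARAP-type proteins, were first called at day 3. Gabarap was 75.5, 67.7, 64.6 and 68.4 FPKM at day 0, 72.4, 71.1, 74.9 and 76.5 at day 1 and 112, 119, 114 and 104 at day 3. It was 140.4, 127, 137 and 144 at day 5 and 116, 121, 118 and 116 at day 28. Day 1 overlapped with day 0, and each later group lay above both. Its log2 change was 0.98 ± 0.05 (SE, adjusted p = 1.40e-15) at day 5 and 0.76 ± 0.05 (SE, adjusted p = 2.81e-13) at day 28, and 0.59 and 0.41 after median-ratio scaling, where only days 5 and 7 were called. Gabarapl2 was 31.2, 28.9, 28.1 and 29.2 FPKM at day 0, 56.999, 52.8, 47.7 and 51.9 at day 3 and 40.6, 37.6, 46.04 and 41.7 at day 28. The day 3 and day 28 samples all lay above day 0, with day 28 lower than day 3. The log2 change of Gabarapl2 was 0.81 ± 0.06 (SE, adjusted p = 4.00e-12) at day 3 and 0.48 at day 28, which was not called. The call at day 14 was lost without replicate 3 of day 0 or replicate 3 or 4 of day 14. Its day 3 value was 0.53 after median-ratio scaling and no longer reached 1.5-fold.

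**Figure D2:**
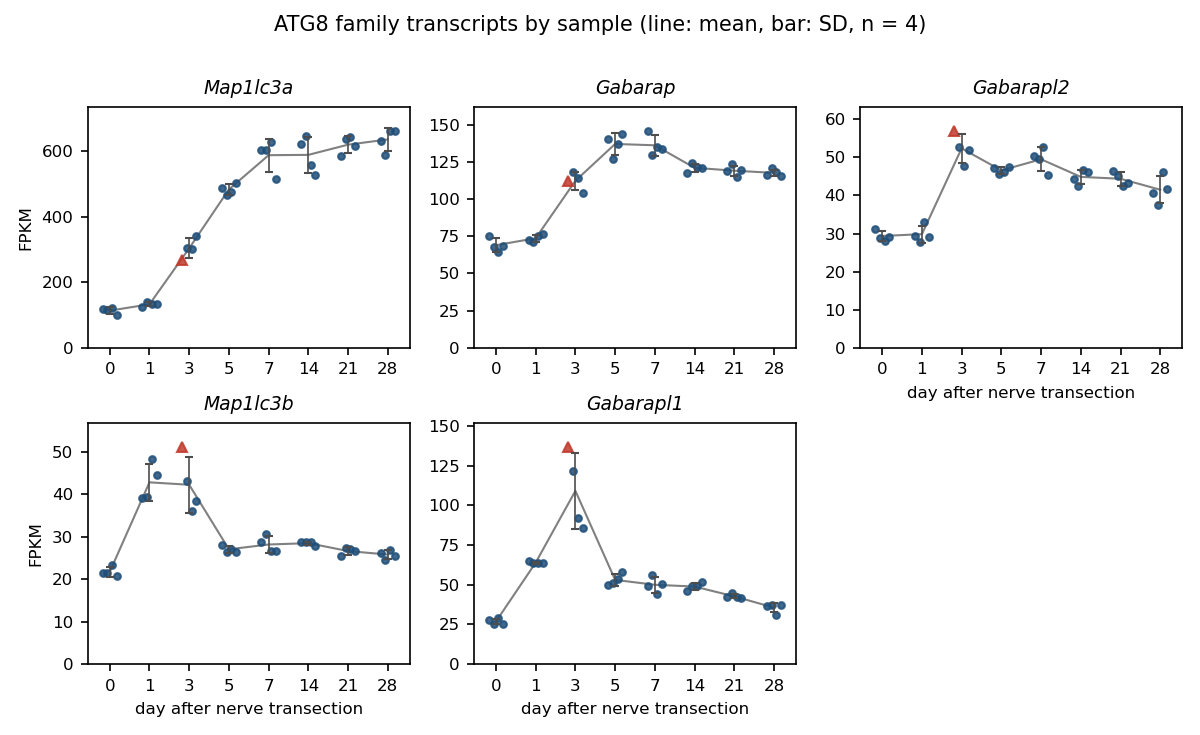
FPKM of the 5 ATG8 genes in each of the 32 samples by day (points, not to scale in time), with the mean as a line and the SD as bars, n = 4; the red triangle is replicate 1 of day 3. Map1lc3a climbs from a mean of 113 to 635 FPKM, while Map1lc3b and Gabarapl1 peak at days 1 to 3.

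These movements changed the make-up of the family, a measure that was added after the values had been seen. No scaling of whole samples can alter it, but its level depends on the exon lengths that FPKM divides by. These were 1181 bases for Map1lc3a and 7517 for Map1lc3b. At day 0 Map1lc3a had 1850 to 2177 fragments and Map1lc3b 2413 to 2675, so the shares below are not shares of fragments. The 5 genes summed to 260 ± 13.9 FPKM at day 0 (SD, n = 4), 343 ± 10.2 at day 1, 619 ± 20.4 at day 3 and 855 ± 35.5 at day 28. Map1lc3a made up 43.5% ± 2.01 of the sum at day 0, 38.6% ± 1.45 at day 1, 48.99% ± 5.17 at day 3, 64.7% ± 0.356 at day 5 and 74.2% ± 1.01 at day 28. Its share in the day 3 library that stood apart was 42.7%, within the day 0 range of 40.7% to 45.5%, while the 3 other day 3 samples lay above that range at 47.5%, 50.8% and 54.9%, and from day 5 on it lay above in all samples. Gabarapl1 held 10.3% ± 0.417 at day 0, 18.7% ± 0.735 at day 1, 17.6% ± 3.61 at day 3 and 4.17% ± 0.456 at day 28. Map1lc3b went from 8.37% ± 0.412 to 12.5% ± 0.941 at day 1 and 3.02% ± 0.0843 at day 28. The shares of both genes were above the day 0 range at day 1 and below it at day 28. The share of Gabarap went from 26.6% ± 1.701 to 13.8% ± 0.814 and that of Gabarapl2 from 11.3% ± 0.592 to 4.85% ± 0.255 of the sum, without overlap between the 2 days, although the FPKM of both genes was higher at day 28. These shares are given without a test.

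**Figure D3:**
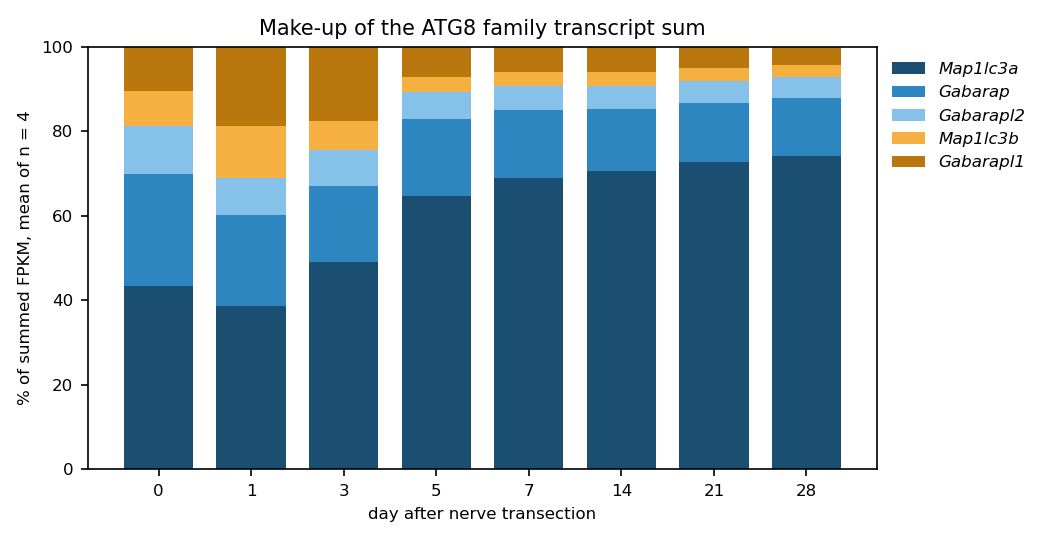
Share of each ATG8 gene in the summed FPKM of the 5 genes (stacked bars, mean of 4 samples per day, in percent). The Map1lc3a part grows from 43.5% at day 0 to 74.2% at day 28, and the Gabarapl1 and Map1lc3b parts are widest at day 1.

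Of the 5 cargo receptor genes, all were called higher on at least 1 day as deposited, and 3 (Sqstm1, Nbr1 and Tax1bp1) after median-ratio scaling. Sqstm1 (chromosome 11, 50199366 to 50210827) encodes p62, which binds ubiquitinated proteins and ATG8 proteins. Its FPKM was 207, 207, 225 and 208 at day 0 and 486, 474, 506 and 518 at day 1. At day 3 it was 757, 521, 619.8 and 655, and at day 28 339.9, 340.3, 312 and 336. No sample of any later day overlapped with day 0, and replicate 1 of day 3 was the highest of all 32. The log2 change was 1.22 ± 0.08 (SE, adjusted p = 7.14e-13) at day 1, 1.57 ± 0.08 (SE, adjusted p = 5.34e-16) at day 3, 1.19 at day 7, 1.00 at day 14 and 0.65 ± 0.08 (SE, adjusted p = 5.44e-08) at day 28. Without that day 3 library the day 3 change was 1.49. After median-ratio scaling Sqstm1 was called at days 1 to 14, with 1.28 at day 3, and its day 28 value was 0.30. It shares 580 exon bases with the antisense gene Mrnip, which stayed between 0.598 and 1.98 FPKM in the day means.

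Nbr1 (chromosome 11, 101552149 to 101581951), whose product is another ubiquitin-binding receptor, rose and then held its level. It was 18.6, 18.5, 20.3 and 20.9 FPKM at day 0, 31.8, 29.6, 28.5 and 28.8 at day 1 and 60.9, 42.02, 44.1 and 47.5 at day 3. At day 28 it was 46.6, 46.9, 46.3 and 41.6. From day 3 on all samples exceeded the highest sample of day 1. The log2 change of Nbr1 was 0.58 at day 1, just under 1.5-fold on this scale, then 1.26 ± 0.08 (SE, adjusted p = 6.46e-14) at day 3, 1.29 ± 0.08 (SE, adjusted p = 5.52e-14) at day 5 and 1.17 ± 0.08 (SE, adjusted p = 3.98e-13) at day 28. After median-ratio scaling it was called at each day from day 3, with 0.98 at day 3 and 0.83 at day 28. Without the day 3 library that stood apart its day 3 change was 1.15.

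Tax1bp1 (chromosome 6, 52713729 to 52766780), a receptor gene of the same group, was called on all 7 days, as was Sqstm1. Its samples were 11.01, 10.3, 10.2 and 10.3 FPKM at day 0 and 18.6, 17.2, 18.1 and 18.99 at day 1. They were 30.02, 21.6, 22.9 and 23.9 at day 3 and 20.4, 20.4, 21.8 and 20.7 at day 28. The 4 samples of each later day lay above the 4 of day 0. Tax1bp1 changed by 0.75 ± 0.06 (SE, adjusted p = 1.19e-10) at day 1, 1.15 ± 0.06 (SE, adjusted p = 3.17e-15) at day 3 and 0.93 ± 0.06 (SE, adjusted p = 4.22e-13) at day 28. Without the library that stood apart the day 3 value was 1.05, and after median-ratio scaling it was 0.88, with 0.68 at day 21 and 0.60 at day 28. On that scale Tax1bp1 was not called at days 1, 5, 7 and 14, where it was at 0.55, 0.44, 0.54 and 0.53.

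Calcoco1 (chromosome 15, 102706777 to 102722178), known as a receptor in the autophagy of the endoplasmic reticulum, was called late. Its FPKM was 16.4, 17.3, 17.02 and 16.4 at day 0, 24.2, 26.3, 25.9 and 25.5 at day 1 and 25.5, 22.4, 21.9 and 22.3 at day 3. At day 14 it was 33.8, 32.9, 33.04 and 31.998, and at day 28 29.1, 32.99, 27.7 and 30.8. All later samples lay above day 0, with the day 3 samples lower than most of day 1. Its log2 change was 0.58 at day 1 and 0.44 at day 3, which were not called, and 0.93 ± 0.06 (SE, adjusted p = 5.67e-13) at day 14. After median-ratio scaling the day 14 value was 0.57, just under 1.5-fold, and the gene was called on no day. Optn, which encodes optineurin, a receptor for damaged mitochondria and bacteria, was 19.8, 22.2, 18.3 and 18.4 FPKM at day 0, 45.9, 32.7, 26.9 and 28.8 at day 3 and 18.9, 19.1, 19.7 and 19.9 at day 5. It was called at day 3 only, at 0.72 ± 0.11 (SE, adjusted p = 3.74e-06), and this call rested on replicate 1 of day 3, without which the change was 0.56. After median-ratio scaling the day 3 change of Optn was 0.44, which was not called either. Between days 7 and 28 its log2 change ran from -0.17 to -0.08.

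The 4 mitophagy genes did not move together. Bnip3 (chromosome 7, 138890836 to 138909519), which encodes a receptor on the outer mitochondrial membrane induced by hypoxia and FOXO factors, was 57.6, 53.2, 50.2 and 60.05 FPKM at day 0 and 92.8, 110.3, 108 and 108 at day 1. It was 225, 145, 121 and 131 at day 3, 84.5, 79.3, 75.6 and 72.6 at day 5 and 72.02, 67.7, 68.8 and 68.4 at day 28. The day 3 samples were the highest, replicate 1 far above the rest, and from day 5 on the samples lay a little above day 0. The log2 change was 0.91 ± 0.12 (SE, adjusted p = 1.11e-06) at day 1 and 1.44 ± 0.12 (SE, adjusted p = 8.72e-11) at day 3, and between 0.32 and 0.49 from day 5, which was not called. Without replicate 1 of day 3 the day 3 change was 1.25. With median-ratio scaling Bnip3 was at 0.69, 1.15 and, at day 28, -0.02.

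Bnip3l, whose product NIX is the close relative of BNIP3, was called on no day. Its mean was 26.6 ± 1.65 FPKM at day 0, 31.97 ± 2.96 at day 3 and 40.2 ± 0.779 at day 7 (SD, n = 4), a log2 change of 0.58 ± 0.05 (SE, adjusted p = 1.97e-10) at day 7 that was 0.21 after median-ratio scaling. Fundc1, a further mitochondrial receptor gene, was 21.7, 19.9, 19.4 and 21.3 FPKM at day 0 and 16.9, 16.2, 13.6 and 14.2 at day 1. The day 1 samples all lay below those of day 0, by -0.42 ± 0.07 (SE, adjusted p = 3.17e-05), which did not reach 1.5-fold as deposited and was called at -0.63 after median-ratio scaling. Pink1, the kinase gene that marks damaged mitochondria for removal, had FPKM of 187, 202, 191 and 161 at day 0 and 122, 133, 122 and 118 at day 5, the day of its lowest mean, and 146, 151, 146 and 146 at day 28. The day 5 and day 28 samples lay below all 4 of day 0. The log2 change of Pink1 was -0.57 ± 0.09 (SE, adjusted p = 8.86e-06) at day 5 and -0.32 at day 28, neither called, whereas after median-ratio scaling the values were -0.96 and -0.67, both called. Without replicate 4 of day 0 or replicate 2 of day 5, Pink1 was also called as deposited at day 5. Fundc1, Pink1 and Ulk2 were the members whose log2 change was below 0 at all 7 days on both scales. From day 3 on the share of fragments from mitochondrial genes was lower than at day 0, and its part in these values was not tested.

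**Figure D4:**
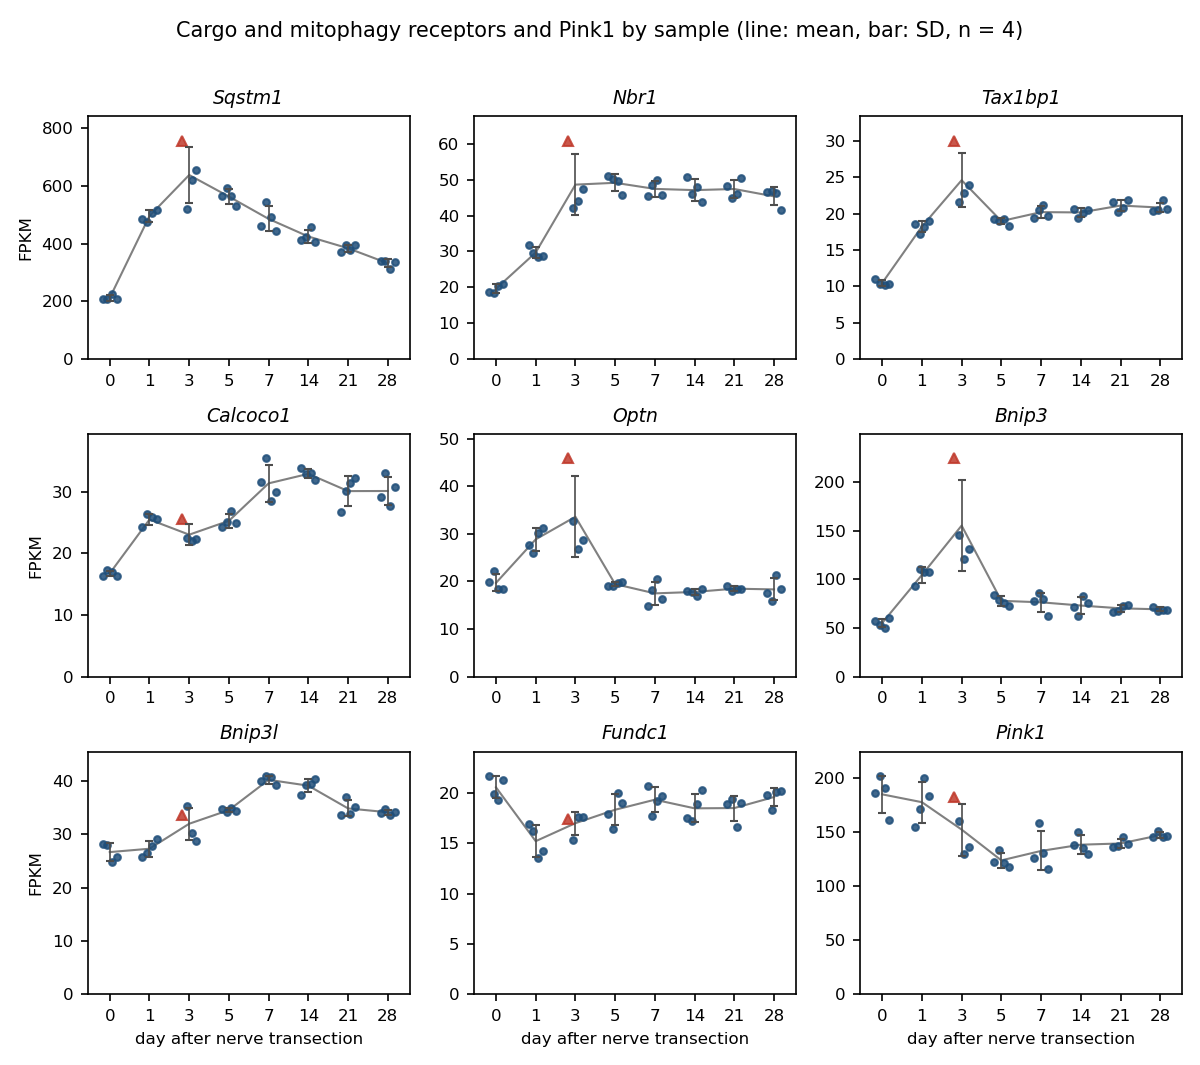
FPKM of the cargo receptor and mitophagy genes in each of the 32 samples by day (points, not to scale in time), with the mean as a line and the SD as bars, n = 4; the red triangle is replicate 1 of day 3. Sqstm1, Optn and Bnip3 peak at day 3 with the triangle highest, Nbr1 and Tax1bp1 stay raised to day 28, and Pink1 is lowest at day 5.

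Of the initiation genes, Ulk1 gave the briefest change. Ulk1 (chromosome 5, 110784488 to 110810097) encodes the kinase that starts autophagosome formation. Its FPKM was 9.26, 10.6, 12.8 and 10.95 at day 0 and 41.2, 36.7, 38.5 and 45.9 at day 1. By day 3 it was 11.9, 9.74, 12.4 and 11.04, and at day 28 it was 10.9, 11.9, 7.75 and 10.01. All 4 day 1 samples lay far above the highest sample of any other day, and the day 3 samples lay within the day 0 range. The mean went from 10.9 ± 1.47 to 40.6 ± 3.98 and 11.3 ± 1.16 FPKM (SD, n = 4). On the log2 scale Ulk1 rose by 1.81 ± 0.12 (SE, adjusted p = 2.08e-12) at day 1, and its day 3 value was 0.05 ± 0.12 (SE, adjusted p = 0.815). Its day 1 value was 1.61 after median-ratio scaling.

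Ulk2 (chromosome 11, 61775649 to 61855073), the gene of the related kinase, fell instead, and it is described here after its values were seen. It was 19.9, 20.6, 22.6 and 23.2 FPKM at day 0, 21.5, 20.5, 21.1 and 20.6 at day 1 and 13.1, 12.3, 14.1 and 13.3 at day 3. At day 28 it was 14.9, 17.6, 14.9 and 17.1. Day 1 overlapped with day 0, and all samples from day 3 on lay below it. The log2 change was -0.67 ± 0.06 (SE, adjusted p = 8.62e-11) at day 3 and -0.40 at day 28, the latter under 1.5-fold, and after median-ratio scaling -0.95 and -0.74, both called. Atg13 (chromosome 2, 91674618 to 91710576), which encodes the adaptor of the kinase complex, was 9.54, 10.8, 10.2 and 11.1 FPKM at day 0, 17.6, 17.2, 18.8 and 20.4 at day 1 and 20.6, 20.2, 17.7 and 18.2 at day 3. These later samples lay well above day 0, and Atg13 changed by 0.77 ± 0.07 (SE, adjusted p = 4.02e-10) at day 1 and 0.82 ± 0.07 (SE, adjusted p = 3.38e-11) at day 3. After median-ratio scaling it was 0.57 and 0.55, below 1.5-fold. Rb1cc1, the gene of the scaffold FIP200, was called at day 1 only, at 14.6, 13.2, 12.1 and 12.8 FPKM against 7.502, 7.59, 8.39 and 8.53 at day 0, without overlap and with a log2 change of 0.66 ± 0.08 (SE, adjusted p = 6.40e-08). After median-ratio scaling the Rb1cc1 change was 0.46 and was not called.

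The 5 genes of the phosphatidylinositol 3-kinase complex and its regulators gave 1 call in all. Pik3c3 encodes the catalytic subunit VPS34, Pik3r4 its partner VPS15, Becn1 the regulator Beclin 1, Atg14 the subunit that directs the complex to autophagy, and Ambra1 a Beclin 1 activator. Ambra1 was called at day 28, with 4.601, 4.59, 5.34 and 5.67 FPKM at day 0 and 8.503, 9.64, 6.96 and 7.35 at day 28. Those groups did not overlap, and the change was 0.59 ± 0.09 (SE, adjusted p = 2.46e-06), or 0.29 after median-ratio scaling. The call was lost without replicate 1 or 2 of day 0 or of day 28. The largest changes of the others were 0.37 for Becn1 at day 14, 0.41 for Atg14 at day 1, 0.48 for Pik3c3 at day 5 and 0.39 for Pik3r4 at day 14 on the log2 scale, all with an adjusted p under 0.05 and under 1.5-fold. After median-ratio scaling these were 0.05 for Becn1 (adjusted p = 0.40), 0.24 for Atg14, 0.14 for Pik3c3 and 0.12 for Pik3r4 (adjusted p = 0.102), and no gene of this group was called. Becn1 shares 3104 exon bases with the antisense gene Cntd1, whose day means stayed between 0.020 and 0.086 FPKM.

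In the membrane group, Wipi1 and Wipi2 were called, and Atg2a and Atg9a did not reach 1.5-fold. Wipi1 (chromosome 11, 109573331 to 109611967), whose product binds phosphatidylinositol 3-phosphate on the growing membrane, was 16.1, 18.02, 15.9 and 13.999 FPKM at day 0 and 18.1, 17.1, 21.2 and 21.3 at day 1. It was 39.7, 43.04, 40.2 and 40.6 at day 3, 23.5, 28.6, 24.6 and 26.3 at day 5 and 15.96, 16.2, 15.3 and 18.3 at day 28. The day 3 samples stood clear of every other day, the day 5 samples lay above day 0, and day 28 overlapped with it. The log2 change of Wipi1 was 1.31 ± 0.08 (SE, adjusted p = 3.40e-14) at day 3, 0.66 ± 0.08 (SE, adjusted p = 4.49e-08) at day 5 and 0.04 at day 28. The median-ratio value at day 3 was 1.03, and that at day 5 was 0.28, which was not called. Wipi2, whose product recruits the conjugation machinery, was called at days 1 and 3, at 0.67 ± 0.07 (SE, adjusted p = 1.23e-08) and 0.74 ± 0.07 (SE, adjusted p = 7.02e-10), and not on the median-ratio scale. Its FPKM was 4.17, 4.02, 4.52 and 3.47 at day 0, 6.98, 6.35, 7.13 and 7.63 at day 1 and 7.67, 7.25, 7.26 and 7.33 at day 3, with both days above day 0 in all samples. The log2 changes of Atg2a, the gene of a lipid transfer protein, ran from 0.04 to 0.37 (adjusted p = 0.00236 at day 14, the largest), and those of Atg9a, the gene of a lipid scramblase, from -0.29 to 0.16 (adjusted p = 0.00100 at day 3, the largest in size). After median-ratio scaling Atg2a was at 0.09 at day 14 (adjusted p = 0.502). Atg9a was then at -0.56 at day 3 (adjusted p = 2.74e-07) and below 0 on all 7 days, with -0.33 at day 5, -0.25 at day 7 and -0.21 at day 14, where its values as deposited were 0.03, 0.10 and 0.14.

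Of the 7 conjugation genes, Atg7 and Atg12 were called as deposited and none after median-ratio scaling, and the other 5 did not reach 1.5-fold on the log2 scale. Atg7, which encodes the E1-like enzyme that activates ATG8 proteins and ATG12, was at low levels, 1.64, 1.54, 1.84 and 1.65 FPKM at day 0 and 3.74, 3.85, 3.102 and 3.73 at day 7. The groups did not overlap, and the log2 change was 0.79 ± 0.08 (SE, adjusted p = 7.60e-09). It was called at days 5, 7, 14 and 21, and its day 28 change was 0.55, short of 1.5-fold on the log2 scale although the means differed 1.75-fold. Atg12, the gene of the ubiquitin-like protein joined to ATG5, was 5.11, 4.97, 4.85 and 5.11 FPKM at day 0 and 8.74, 8.05, 8.48 and 7.55 at day 28, again without overlap. Atg12 was called at days 7, 21 and 28, at 0.61, 0.60 and 0.61, the first of them lost without replicate 3 of day 7. On the median-ratio scale the largest change of Atg7 was 0.53 at day 7 and that of Atg12 0.35 at day 21, and neither was called. The remaining genes were Atg3 (the E2-like enzyme of ATG8 proteins), Atg4a and Atg4b (proteases that prime them), and Atg5 and Atg16l1 (partners of ATG12). Their largest log2 changes against day 0 were 0.49 for Atg3 at day 3, 0.33 for Atg4a at day 21, 0.51 for Atg4b at day 3 (a 1.54-fold difference of the means), 0.41 for Atg5 at day 5 and 0.43 for Atg16l1 at day 28. The adjusted p at these days was 0.0222 for Atg4a and between 1.30e-08 and 1.83e-06 for the other 4. After median-ratio scaling the values were 0.22 for Atg3 and 0.27 for Atg4b, with an adjusted p under 0.05, and 0.06 for Atg4a, 0.05 for Atg5 and 0.16 for Atg16l1, with an adjusted p of 0.768, 0.611 and 0.0571.

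Of the transcription factor genes, Tfeb fell, and Tfe3 passed the adjusted p but was not called. Tfeb (chromosome 17, 47737030 to 47792419), described here after its values were seen, encodes a main activator of lysosomal and autophagy genes. It was 8.68, 9.62, 9.59 and 7.88 FPKM at day 0 and 10.4, 10.8, 8.83 and 8.72 at day 3. At day 7 it was 5.43, 5.77, 3.897 and 5.05, and at day 28 6.46, 5.596, 5.28 and 6.44. Day 3 overlapped with day 0, and the samples of days 7 and 28 lay below both. Tfeb changed by -0.62 ± 0.09 (SE, adjusted p = 2.76e-06) at day 5, -0.73 ± 0.09 (SE, adjusted p = 2.21e-07) at day 7 and -0.61 ± 0.09 (SE, adjusted p = 3.54e-06) at day 14, which were called. The values at days 21 and 28 were -0.57 and -0.52, under 1.5-fold on this scale. The call at day 5 was lost without replicate 3 of day 5, and that at day 14 without replicate 2 or 3 of day 0 or replicate 4 of day 14. Tfeb was called at day 21 without replicate 4 of day 0 or replicate 3 of day 21. After median-ratio scaling the change was -1.07 at day 7 and -0.83 at day 28, and each day from day 5 was called. Tfe3, the gene of a related factor, had its highest mean at day 1, 2.69 ± 0.299 against 1.58 ± 0.0926 FPKM at day 0, with a log2 change of 0.51 ± 0.08 (SE, adjusted p = 1.08e-05). The means of Tfe3 differed 1.70-fold, and it is on the scale of log2(FPKM + 1) that the change stayed under the 1.5-fold threshold. After median-ratio scaling it was 0.38 at day 1. At day 28 the change of Tfe3 was 0.16, or -0.07 after median-ratio scaling.

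**Figure D5:**
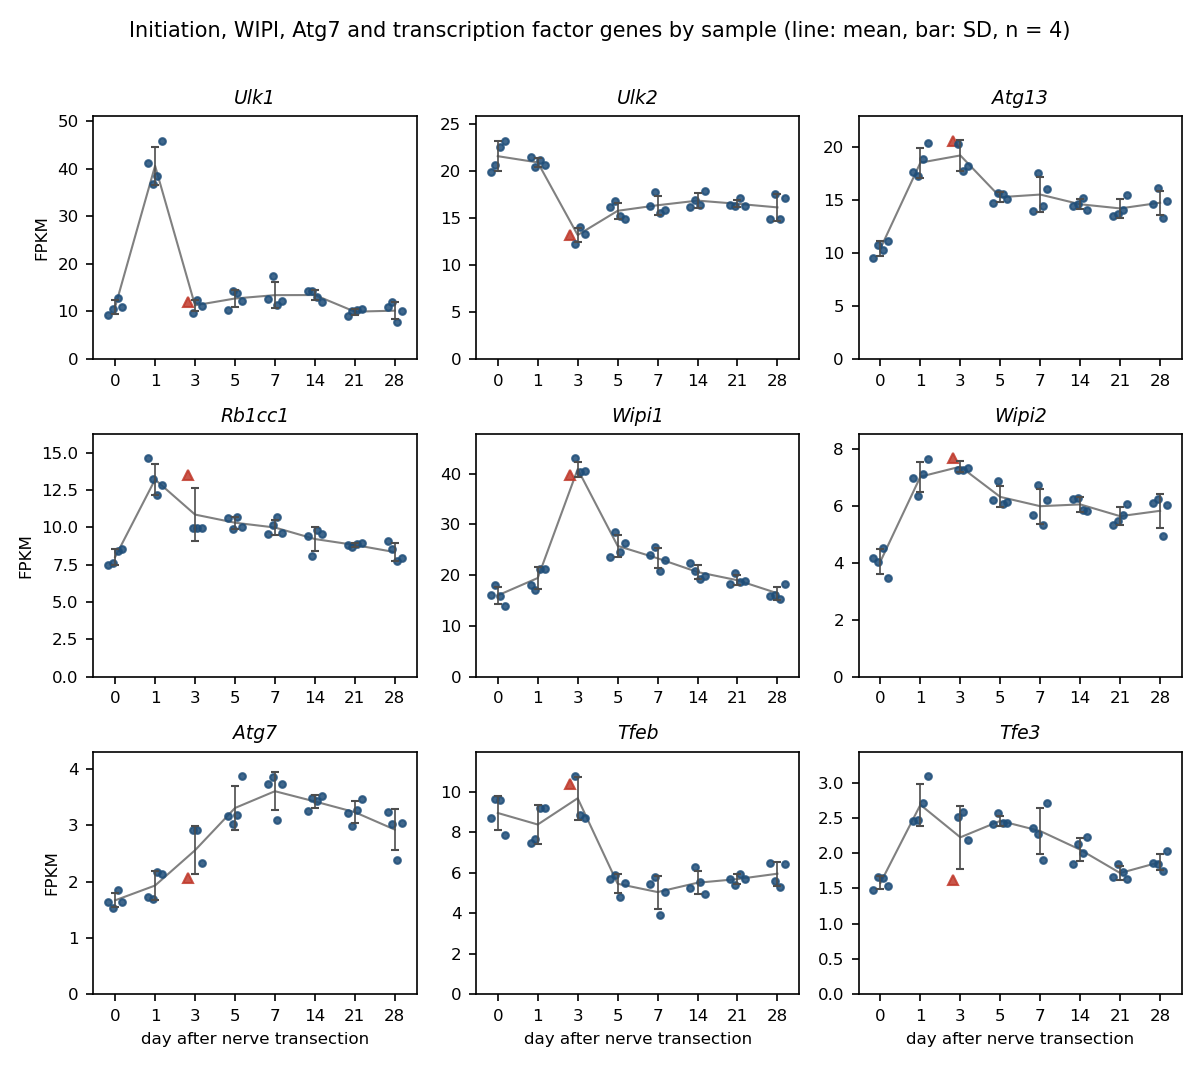
FPKM of initiation, WIPI, Atg7 and transcription factor genes in each of the 32 samples by day (points, not to scale in time), with the mean as a line and the SD as bars, n = 4; the red triangle is replicate 1 of day 3. Ulk1 is raised at day 1 alone, Wipi1 peaks at day 3, Ulk2 falls by day 3 and Tfeb is lower from day 5.

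Day 28 was also set against day 3, a comparison of means in which the day 0 samples enter only through the shared estimate of the spread. In it 1 member was higher and 7 were lower, where 7.46% higher and 4.54% lower of all genes were called. After median-ratio scaling the counts were again 1 and 7 (all genes 6.51% higher and 5.24% lower). The genes that were lower at day 28 were Gabarapl1 at -1.57 ± 0.10 (SE, adjusted p = 3.09e-13), Wipi1 at -1.27 ± 0.08 (SE, adjusted p = 2.69e-13), Bnip3 at -1.11 ± 0.12 (SE, adjusted p = 2.69e-08), Sqstm1 at -0.93, Optn at -0.82, Map1lc3b at -0.68 and Tfeb at -0.62. Map1lc3a was higher, by 1.07 ± 0.08 (SE, adjusted p = 8.89e-12). Without the day 3 library that stood apart, the Gabarapl1, Wipi1 and Bnip3 changes were -1.45, -1.28 and -0.92, and Map1lc3b at -0.58 was just short of 1.5-fold. The Tfeb call was lost without replicate 2 of day 3 or replicate 3 of day 28. For Nbr1 and Tax1bp1 the difference between the 2 days was -0.09 ± 0.08 and -0.22 ± 0.06 (SE), neither called.

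A list of 55 other autophagy genes, all tested, had more higher than lower calls as deposited, as all genes had. The counts higher and lower were 11 and 1 at day 1, 14 and 2 at day 3, 10 and 0 at day 5, 11 and 0 at day 7, 8 and 0 at day 14, 4 and 1 at day 21 and 4 and 1 at day 28, against the shares of all genes given above. The higher calls were 20% of the list at day 1, 25.5% at day 3, 18.2% at day 5 and 20% at day 7. They were 14.5% at day 14, near the 14.6% of all genes, and 7.27% at days 21 and 28, below the 11.8% and 14.2% of all genes. Of the 13405 genes with 1 FPKM or more in at least 4 samples, 10.2%, 21.5%, 24.3%, 25%, 23.6%, 19.1% and 22.8% were higher at the 7 days. The list was above these shares at days 1 and 3 and below them from day 5 on. After median-ratio scaling the counts higher and lower were 6 and 3, 9 and 4, 1 and 5, 1 and 4, 1 and 5, 2 and 4 and 3 and 6. On that scale the higher calls were 10.9% of the list at day 1 and 16.4% at day 3, above the 3.81% and 8.0% of all genes, and 1.82% at days 5, 7 and 14, 3.64% at day 21 and 5.45% at day 28, below the 6.63% to 7.15% of all genes. Day 28 against day 3 gave 3 and 6, or 3 and 9 after median-ratio scaling. The largest rises were those of Depp1, a FOXO-induced gene, and Retreg1, which encodes a receptor for the autophagy of the endoplasmic reticulum. Depp1 went from a mean of 3.44 FPKM at day 0 to 47.8 at day 3, a change of 3.34 ± 0.27 (SE, adjusted p = 1.90e-11), and Retreg1 from 70.4 to 648, a change of 3.11 ± 0.15 (SE, adjusted p = 3.55e-16). At day 28 they were at 2.36 and 58.1 FPKM, which was not called against day 0. The largest falls against day 0 were those of Trp53inp2, which encodes an ATG8-binding protein, at -1.16 ± 0.08 (SE, adjusted p = 2.71e-12) at day 3, and of Atg101, a partner of ATG13, at -0.63 ± 0.08 (SE, adjusted p = 9.20e-08) at day 3.

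Promoter windows, from 250 bases before to 50 after the start site, were given by RefSeq (GRCm38.p6) for 29 of the 36 members, as 35 windows. The CLEAR element bound by TFEB and TFE3 (GTCACGTG, either strand) lay in the windows of 3 members, Atg3, Atg7 and Atg14, and its core (CACGTG, which every CLEAR match also contains) in those of 5, with Atg5 and Bnip3 added. Over all 32851 windows the shares were 2.25% and 7.15%. The core of the antioxidant response element (TGACNNNGC, either strand) lay in those of Atg13, Map1lc3b, Tax1bp1 and Ulk2, and in 12.39% of all windows. The FOXO motif GTAAACA was in none of the 35 and in 3.65% of all windows, which says only that these letters are not in these stretches. The matches of the CLEAR element, of its core in Bnip3, and of the antioxidant core in Atg13 and Tax1bp1 are printed because they lie in genes with and without a call above; capitals mark the match, and each line reads 5′ to 3′ on the strand of its gene.
Atg3, chr16:45158722-45158751: ggcctccttttGTCACGTGtcctgggagag
Atg3, chr16:45158745-45158774: gggagagtcgaGTCACGTGaggccttaggt
Atg7, chr6:114670951-114670980: ccatattggtgGTCACGTGtgcagtaagtg
Atg14, chr14:47568417-47568446: aaacaaaatccCACGTGACtggccctgagc
Bnip3, chr7:138909598-138909625: cgcacgcgccgCACGTGccacacgctcc
Atg13, chr2:91710815-91710842: cgccccacGCCGCGTCAtcagcacctcg
Tax1bp1, chr6:52713949-52713978: ggtctccgtggTGACGAAGCtctctttccc
Atg3, with its pair of CLEAR matches, and Atg14 were called on no day, Atg7 was called at days 5 to 21, and Bnip3 was called at days 1 and 3. The printed stretches of Atg7, Atg14 and Tax1bp1 lie at start sites inside the span of the GENCODE gene. A match is a description of the sequence and was not tested as a binding site.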

How the data were processed

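RNA of GAS muscle was sequenced in 4 samples at each of 8 time points. The authors deposited FPKM per gene and sample. The submitters' processing notes name CASAVA, HISAT2 2.1.0, DESeq2 and the build GRCm38; the counting tool and its strand setting are not given in the sources used here. Identifiers were matched to GENCODE release M21 (33356 of 33397 genes, 99.9%). With its exon lengths the FPKM gave whole fragments (within 0.05) for 99.3% to 99.4% of values under 200 fragments, which provided the depth of 14199898 to 17561590 per sample. Replicates of a day differed by 4.0 to 66.6 chi-square units per degree of freedom, so no pair was 1 library repeated, and Pearson's r between them, across genes, had a median of 0.987. The columns of the table name the day but no sample, so the 4 columns of a day were used as its replicates, and control columns as day 0.

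log2(FPKM + 1), with a pseudocount of 1, was fitted with limma 3.58.1 in R 4.3.3 (lmFit, eBayes with a variance trend) over all 32 samples, with 1 mean per day and 24 residual degrees of freedom. Genes reaching 0.1 FPKM in 4 or more samples (22071) were tested, and p-values were adjusted by Benjamini-Hochberg over all of them. A change was called at an adjusted p under 0.05 and 1.5-fold. Changes on this scale understate those of low genes. The planned exact permutation tests of single genes at their day of largest change are not reported, because the genes and the day were chosen for the size of the change. Summaries and plots used Python 3.11.15 and matplotlib 3.10.9.

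Members and gene lists were chosen with earlier results of these data known. Per-sample values are given for the 12 members with the largest absolute change among those called, for the ATG8 family, and, after the values were seen, for the other called members and for Fundc1 and Pink1, which were called only after median-ratio scaling. The alternatives were other scalings, pseudocounts, filters, thresholds and fits, and leaving out each sample in turn.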

Additional observations from a re-analysis of the deposited data

Results flagged for a closer look

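In 120 groups of 4 samples (15 genes over 8 days), 8 held 1 sample that lay apart from the other 3 by Dixon's criterion, where chance gives about 6.0. Gabarapl1 was 31.0 FPKM in replicate 3 of day 28, against 36.8 to 37.5 in the other samples. In the same library Sqstm1 was 312 FPKM, against 336 to 340.3. Nbr1 was 41.6 FPKM in replicate 4 of day 28, against 46.3 to 46.9. At day 0, replicate 3 had 225.5 FPKM of Sqstm1, against 207 to 208. Bnip3 was 92.8 FPKM in replicate 1 of day 1, against 108 to 110.3. Map1lc3b was 27.96 FPKM in replicate 4 of day 14, against 28.7 in each of the others. Calcoco1 was 25.5 FPKM in replicate 1 of day 3, against 21.9 to 22.4, in the library that stood apart on the first principal component. Ulk2 was 17.1 FPKM in replicate 3 of day 21, against 16.3 to 16.4.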

How the results depend on the processing

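The number of genes called depended on the scale and on the thresholds. Counts that moved are given for days 1, 3, 5, 7, 14, 21 and 28 in that order unless days are named. After median-ratio scaling 5, 8, 4, 4, 3, 3 and 3 genes were higher, with 1 lower at day 1 and 3 lower from day 5 on. Quantile normalization gave 7, 5, 4, 4, 5 and 4 higher from day 3 on, with 3 lower at days 5 and 7 and 2 lower later. Limma-voom on recovered fragments gave 5, 5, 4 and 3 higher from day 7 on, with 1 lower at day 1, 2 at day 3 and 3 from day 5 on. Dividing by totals without mitochondrial genes left 5 higher and 1 lower at day 28, 2 lower at days 5 and 7 and 1 at day 21. Rescaling to TPM gave 19, 21, 23 and 14 higher at days 5, 7, 14 and 28 and 0 lower at days 3, 5 and 14. Pseudocounts of 0.1 and 0.5 gave 1 lower at day 21. The members' higher counts at these pseudocounts are not given here, so the higher shares of all genes below have no count beside them. Without a fold threshold, 23, 25, 27, 28, 27, 26 and 24 were higher and 1, 4, 3, 3, 3, 3 and 3 lower, with 9 higher and 13 lower for day 28 against day 3. At an adjusted p under 0.01 and 2-fold, 3, 7, 3, 3, 3, 2 and 2 were higher, 0 were lower at days 3, 5, 7 and 14, and 3 were lower for day 28 against day 3. The shares of all genes moved too. Rescaling to TPM called 12.1%, 22.5%, 28.6%, 29.8%, 30.7%, 21.8% and 28.6% of all genes higher at the 7 days. It called 6.33%, 3.68% and 3.75% lower at days 3, 5 and 14. A pseudocount of 0.1 called 11.3%, 20.4%, 25.3%, 26.4%, 26.4%, 21.1% and 26.7% higher, and a pseudocount of 0.5 called 8.28% to 19.5%. At day 21 these pseudocounts called 6.37% and 4.86% lower. Quantile normalization called 6.86% to 8.65% higher and 6.61% to 8.91% lower from day 3 on. Limma-voom called 11.8% to 13.4% higher from day 7 on and 9.81% to 17.5% lower over all days. Totals without mitochondrial genes called 11.2% higher at day 28, and 4.83%, 5.26%, 4.77% and 4.97% lower at days 5, 7, 21 and 28. Without a fold threshold 20.4% to 38% of all genes were higher and 9.01% to 14.3% lower against day 0. For day 28 against day 3 these shares were 23.9% and 12.5%. At an adjusted p under 0.01 and 2-fold, 1.74% to 5.15% of all genes were higher against day 0. The lower shares there were 2.48%, 1.69%, 1.9% and 1.76% at days 3, 5, 7 and 14, and 1.55% for day 28 against day 3. The cause of these differences was not tested.

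Leaving out 1 sample at a time moved the lower counts, which were 0 to 2 at day 5, 0 to 1 at day 14 and 0 to 1 at day 21. In all, 71 of the 79 calls were kept without any 1 sample, and the other 8 lost the 1.5-fold threshold while their adjusted p stayed under 0.05. At the day of largest change, 9 of the 21 called genes fell below 1.5-fold after median-ratio scaling: Calcoco1 (0.57), Atg13 (0.55), Gabarapl2 (0.53), Atg7 (0.53), Wipi2 (0.498), Rb1cc1 (0.46), Optn (0.44), Atg12 (0.31) and Ambra1 (0.29). Among the 15 genes tried under each alternative, the same happened to Atg13 (0.52) and Gabarapl2 (0.49) after quantile normalization, Gabarapl2 (0.54) with limma-voom, and Ulk2 (-0.53) in TPM. No paired analysis was possible because the columns carry letters, or numbers in the control columns, that are tied to no single sample in the labels. The precision of each value is limited by 4 samples a day and, for low members, by depth as well: at day 0 the counting error of Atg7 (160 to 196 fragments) was 7.49% of its level against a spread between samples of 7.64%, and that of Tfe3 (210 to 234 fragments) 6.67% against 5.87%.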
